A study of Mus musculus with 6 samples.

Results

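The genes described here are 37 enzymes of nucleotide and one-carbon synthesis, listed by name for purine, pyrimidine, deoxynucleotide (dNTP) and folate metabolism and measured in splenic T cell preparations of mice with and without miR-142. The platform annotation assigned at least 1 probe set to 36 of them, out of 18193 genes on the array that had a probe set of their own, and each enzyme was read from its brightest probe set, judged by the average of the 6 arrays. Impdh2, an IMP dehydrogenase, had none in the annotation used here and was not analysed. The study compared 3 arrays of T cells from miR-142 KO mice with 3 from wild-type (WT) littermates, 1 array for each animal. All 6 mice were male C57BL/6 animals of 10 weeks that received no treatment named in the labels, and T cells were taken from each spleen by negative selection, which removes other cells and leaves T cells untouched. The labels give neither the extent of the deletion nor whether it affects blood cells alone.

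Cells make purine and pyrimidine rings from small precursors, with one-carbon units carried by folate, and convert the finished ribonucleotides into dNTPs by ribonucleotide reductase. Dividing cells need much more of these products than resting ones, and several steps exist as a pair of related enzymes. For the small subunit of ribonucleotide reductase (Rrm2 and Rrm2b) and thymidine kinase (Tk1 and Tk2), the first form serves DNA replication in the nucleus. The second form of these pairs serves resting cells or mitochondria. Resting splenic T cells rely largely on salvage of existing bases and nucleosides, and they turn on the whole synthesis programme when they are activated.

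The sequences below were chosen because they lie in front of members that rose together. These are the subunits of the S-phase ribonucleotide reductase, Rrm1 and Rrm2, and the purine genes Ppat and Paics, which overlap. The sequences come from the RefSeq promoter table (GRCm38.p6), run 5′ to 3′ on the strand of the gene, and carry searched motifs in capitals.
Rrm1, chr7:102441545-102441694, plus strand: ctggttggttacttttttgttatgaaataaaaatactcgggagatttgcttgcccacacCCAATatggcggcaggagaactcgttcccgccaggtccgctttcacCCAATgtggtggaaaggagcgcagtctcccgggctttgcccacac
Rrm2, chr12:24708104-24708253, plus strand: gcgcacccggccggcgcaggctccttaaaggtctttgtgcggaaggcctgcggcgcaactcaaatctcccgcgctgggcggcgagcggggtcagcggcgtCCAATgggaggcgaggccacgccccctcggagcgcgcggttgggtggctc
Ppat, chr5:76951771-76951800, minus strand: gagcagaccgcGCGGGAAAaaagggcagtg
Ppat, chr5:76951718-76951747, minus strand: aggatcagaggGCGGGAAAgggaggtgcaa
Paics, chr5:76951087-76951116, plus strand: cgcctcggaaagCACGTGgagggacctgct
Paics, chr5:76951267-76951296, plus strand: tcccgctctccgCCAATcagctagggcaaa
The capitals mark CCAAT in Rrm1, Rrm2 and the second Paics stretch, the E-box CACGTG in the first Paics stretch, and the E2F letters GCGGGAAA (TTTCCCGC on the other strand) in Ppat. Ppat and Paics lie on opposite strands of chromosome 5 and overlap at their 5′ ends, with start sites 276 bases apart. The stretches printed in front of each of them therefore lie within the other gene.

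The motifs were searched on both strands in windows of 300 bases, 250 before and 50 after each start, for 33 of the 36 measured members. CCAAT stood in the windows of 14 of the 33 members, or 42.4%, against 41.1% of all genes in the table, which is close to the background. The E-box CACGTG was found for 5 members (15.2%, against 8.09% of all genes), namely Atic, Dtymk, Nme1, Paics and Tyms. The E2F letters TTTCCCGC, TTTCGCGC, TTTGCCGC or TTTGGCGC were found for Ppat and Prps2 (6.06% of members, against 2.60% of all genes). The cell cycle homology region TTTGAA was found for 5 members, which again is 15.2%, against 20.2% of all genes. None of the motifs overlapped another in the printed stretches.

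Values were log2 intensities, and a gene is said to have risen, fallen or changed where limma, run over all 45037 probe sets, gave an adjusted p below 0.05. The transcript listed as Mir142 read 7.93, 8.13 and 7.67 in the WT arrays and 5.97, 5.88 and 5.90 in the KO arrays. It was lower in each KO array, but whether its probe set lies in the deleted part is not known here, so it may not check the labels. Array medians ran from 5.70 to 5.77. The bacterial hybridization controls averaged 10.10 to 10.30 in WT and 9.80 to 9.91 in KO, and the median probe set differed by -0.08 as deposited and by 0.29 after scaling to those controls. The 18S control read 7.86 in KO replicate 1 against 9.15 and 9.19 in the other KO arrays. For Actb, the control probe set at the 3′ end exceeded that at the 5′ end by 0.16 to 0.23 in WT and 0.32 to 0.40 in KO. A larger excess is a sign of less intact RNA. Every T cell marker measured, 11 of 11, fell, with list means of 12.05 to 12.11 in WT and 9.29 to 10.65 in KO, so that the KO preparations still carried T cell transcripts at a lower level. In the same arrays, 10 of 10 markers of mast cells, basophils and eosinophils rose (list means of 6.09 to 6.20 in WT and 10.54 to 11.03 in KO), as did 11 of 11 erythroid markers (7.64 to 8.03, and 10.28 to 11.32), 10 of 12 neutrophil markers (6.27 to 7.33, and 10.27 to 13.07) and 8 of 8 progenitor markers (7.45 to 7.49, and 10.08 to 10.20). So did 6 of 6 megakaryocyte, 7 of 10 monocyte and macrophage, and 5 of 9 dendritic cell markers. Of 9 B cell markers 1 rose, of 8 plasma cell markers 2 rose and 1 fell, and of 7 NK cell markers 5 fell. The part of these cells and of RNA integrity in the results on the enzymes was not tested, and in such bulk samples fewer cells of a type and less RNA per cell cannot be told apart.

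Most of the enzymes were higher in KO. Of 36 measured members 23 rose, 5 fell and 8 did not pass the test. All genes with a probe set serve as the background, and of these 18.6% rose and 18.6% fell. The members are bright, and among the 6274 genes at least as bright as the tenth percentile of the members, 27.4% rose and 29.4% fell, against 63.9% and 13.9% of the members. Their median difference between KO and WT was 0.61, against -0.06 over all genes. All KO values lay above all WT values for 25 members and below them for 7, against 24.1% and 29.7% of all genes. The rises ran from 0.33 for Hprt to 4.06 for Adssl1, and the falls from 0.60 for Ctps2 to 1.57 for Tk2 on the log2 scale. Scaled to the hybridization controls, 28 members rose and 3 fell.

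**Figure D1:**
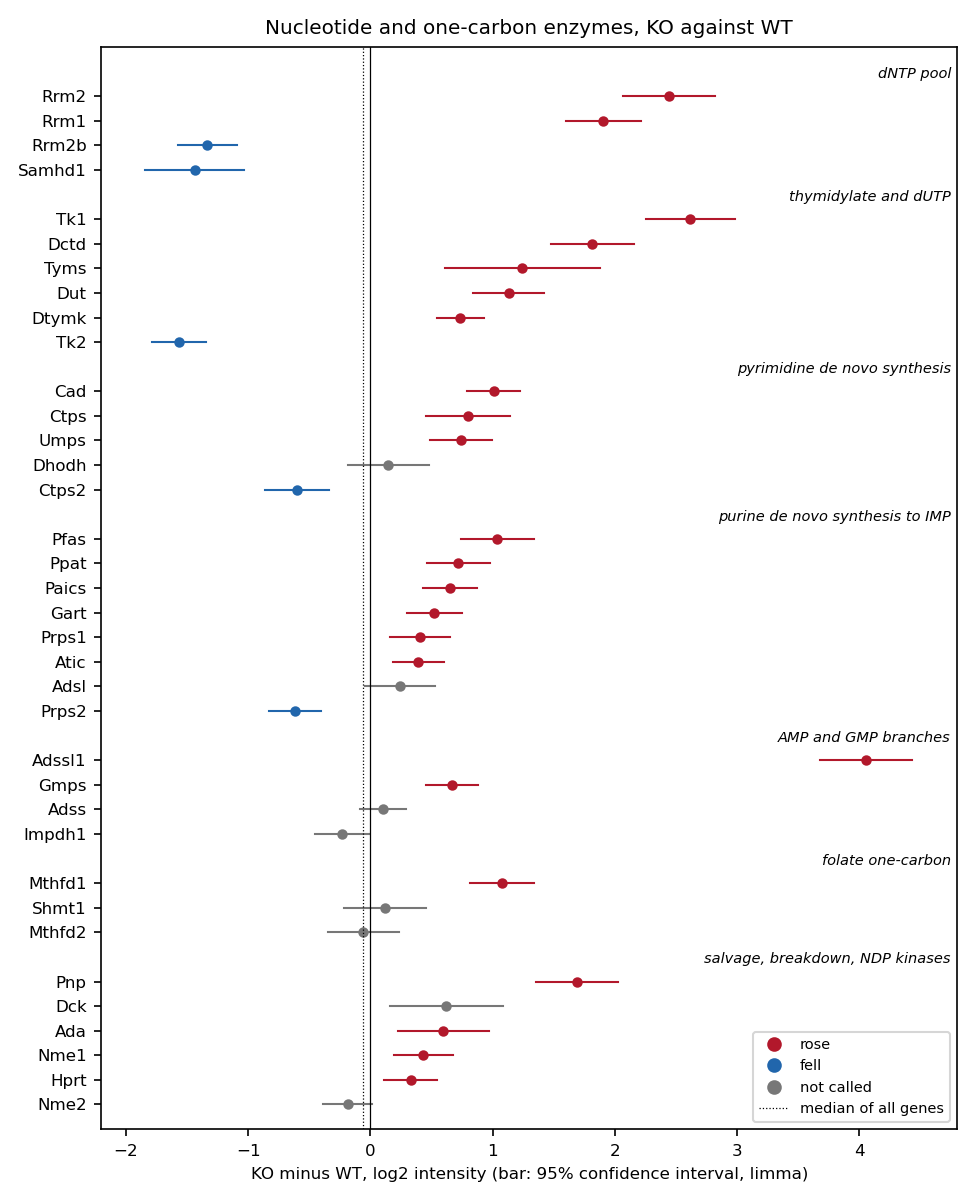
Difference between KO and WT (log2 intensity) of each of the 36 measured enzymes, grouped by role, with 95% confidence intervals from limma; red marks members that rose, blue those that fell, grey those that did not pass the test, and the dotted line the median of all genes. In 4 of the 7 roles a blue point stands among red ones: Rrm2b with Samhd1, Tk2, Ctps2 and Prps2.

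The small subunits of ribonucleotide reductase changed in opposite directions. The enzyme pairs the large subunit Rrm1 with either Rrm2, which is made in S phase, or Rrm2b, which serves resting cells, DNA repair and mitochondrial DNA. Rrm1 read 10.18, 10.14 and 10.19 in the WT arrays and 11.95, 12.36 and 11.91 in the KO arrays. It rose by 1.91 ± 0.13 (SE, n = 3 per group; limma adjusted p = 8.6e-05), which is 3.75-fold. Rrm2 read 9.94, 9.60 and 9.99 in WT and 12.27, 12.55 and 12.04 in KO. It rose 5.44-fold, by 2.44 ± 0.16 (limma adjusted p = 7.5e-05). The lowest KO value of each stood at least 1.72 above the highest WT value. Rrm2b went the other way, from 9.57, 9.57 and 9.85 in WT to 8.29, 8.34 and 8.36 in KO. It fell by 1.33 on the log2 scale (SE 0.10, limma adjusted p = 0.00014), 2.52-fold, and the KO values lay close together.

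Samhd1, the enzyme that breaks dNTPs down in non-dividing cells, fell as well. Its values were 11.34, 11.46 and 11.44 in WT and 10.26, 9.57 and 10.10 in KO, with KO replicate 2 the lowest. The fall was 1.44 on the log2 scale (SE 0.17, limma adjusted p = 0.00087), 2.71-fold. Most other probe sets of these genes went the same way: the 2 others of Rrm2 rose, the 3 others of Rrm2b fell, and 3 of 4 others of Samhd1 fell. Of the 2 others of Rrm1, the brighter rose by 1.75 (limma adjusted p = 0.00032) and a dim one differed by -0.10 (limma adjusted p = 0.61). The calls of Rrm1, Rrm2, Rrm2b and Samhd1 were kept under all alternatives to the processing, scaling to the hybridization controls included.

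Thymidine nucleotides come from thymidylate synthase or from thymidine kinases, and 5 of 6 enzymes of this branch rose. Tk1, the cytosolic thymidine kinase of dividing cells, read 8.28, 8.31 and 8.47 in WT and 10.76, 11.32 and 10.84 in KO. This was a 6.15-fold rise of 2.62 ± 0.16 (SE, n = 3 per group; limma adjusted p = 5.3e-05), and no array of one genotype came within 2.29 of the other. Tk2, the mitochondrial thymidine kinase, fell by 1.57 on the log2 scale (SE 0.09, limma adjusted p = 5.6e-05), or 2.96-fold, from 10.29, 10.43 and 10.34 in WT to 8.83, 8.66 and 8.87 in KO. Tk1 and Tk2 thus changed in opposite directions, each without overlap between the genotypes. Dctd, the deaminase that turns dCMP into dUMP, rose 3.53-fold, from 7.28, 7.34 and 7.54 to 8.91, 9.33 and 9.37 (limma adjusted p = 0.00015). Dut, which removes dUTP and supplies dUMP, rose 2.19-fold, from 10.90, 10.94 and 11.05 to 11.92, 12.34 and 12.03 (limma adjusted p = 0.00058). Dtymk, the kinase that phosphorylates dTMP, had the tightest KO values, 11.99, 12.05 and 12.02, against 11.21, 11.33 and 11.31 in WT, a 1.67-fold rise (limma adjusted p = 0.00058).

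Tyms, thymidylate synthase, is poorly covered by its own probe sets. The brightest one assigned to it alone was dim, with values of 3.95, 4.14 and 4.09 in WT and 5.28, 5.91 and 4.71 in KO. It rose by 1.24 ± 0.27 (SE, n = 3 per group; limma adjusted p = 0.012), and the call was lost without WT replicate 1 (limma adjusted p = 0.0502). Of 3 other probe sets of Tyms 1 rose, by 0.75, and 2 differed by -0.22 and -0.02. A brighter probe set that the annotation shares between Tyms and the pseudogene Tyms-ps, whose source therefore cannot be split, rose by 1.96 ± 0.18 (limma adjusted p = 0.00027), from 8.62, 8.76 and 9.08 to 10.58, 11.13 and 10.63.

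**Figure D2:**
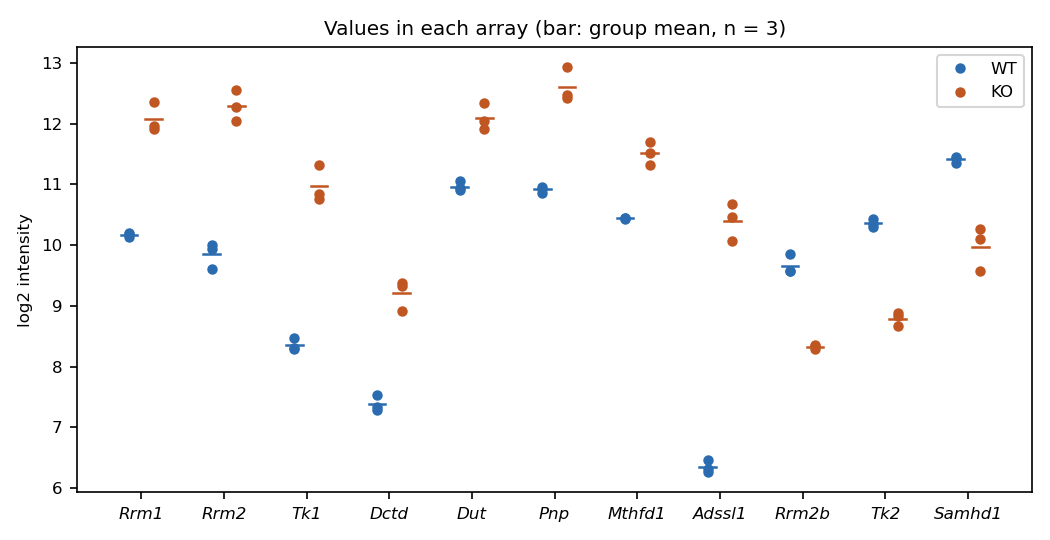
Log2 intensity of 11 members in each of the 3 WT and 3 KO arrays, with bars at group means; levels of different genes are not comparable because each has its own probe set. KO points lie above WT points from Rrm1 to Adssl1, by the widest margin for Adssl1 (3.59 between the nearest arrays), and below them for Rrm2b, Tk2 and Samhd1.

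Of the 5 measured enzymes of pyrimidine synthesis, 3 rose, 1 fell and 1 did not pass the test. Cad, the multifunctional protein that carries out the opening steps, read 9.41, 9.45 and 9.41 in WT and 10.36, 10.58 and 10.37 in KO. It rose by 1.01 ± 0.09 (SE, n = 3 per group; limma adjusted p = 0.00027). Dhodh, the mitochondrial enzyme that follows, gave overlapping groups, 8.44 to 8.67 in WT and 8.45 to 8.93 in KO. Its difference of 0.15 had a 95% interval from -0.19 to 0.48 (limma adjusted p = 0.48). Umps, which completes UMP, rose 1.67-fold, from 9.06, 9.17 and 9.21 to 9.70, 10.00 and 9.97 (limma adjusted p = 0.0021), and 2 of its 3 other probe sets rose by 1.26 and 1.30.

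CTP synthase has a pair of genes that moved apart. Ctps, known as the form on which proliferating lymphocytes depend, rose by 0.80 ± 0.15 (SE, n = 3 per group; limma adjusted p = 0.0057), from 9.62, 9.57 and 9.68 to 10.09, 10.63 and 10.53. Ctps2 fell by 0.60 on the log2 scale (SE 0.11, limma adjusted p = 0.0059), from 10.22, 10.32 and 10.35 to 9.84, 9.50 and 9.75. The KO arrays spread more widely than the WT arrays for each of them, and KO replicate 2 had the highest Ctps and the lowest Ctps2. The fall of Ctps2 was lost under scaling to the hybridization controls, and its 2 other probe sets did not pass the test.

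Purine synthesis from ribose phosphate to IMP rose along most of its length, with 6 of 8 enzymes higher, 1 lower and 1 not called. Pfas, which makes formylglycinamidine ribotide, rose most, 2.05-fold, from 8.72, 8.89 and 8.94 in WT to 9.68, 10.10 and 9.88 in KO (limma adjusted p = 0.00097). Ppat, which catalyses the committed step, read 9.27, 9.37 and 9.43 in WT and 9.87, 10.18 and 10.17 in KO. It rose by 0.72 ± 0.11 (SE, n = 3 per group; limma adjusted p = 0.0026). Paics, whose 5′ end overlaps that of Ppat, rose by 0.65 ± 0.10 (limma adjusted p = 0.0021), from 12.30, 12.14 and 12.34 to 12.88, 13.02 and 12.84. Of its 2 other probe sets 1 rose by 0.69 and 1 differed by 0.42 without passing the test (limma adjusted p = 0.064). Ppat and Paics thus rose 1.65-fold and 1.57-fold.

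The remaining steps to IMP differed less. Gart, a trifunctional enzyme, rose by 0.52 ± 0.10 (limma adjusted p = 0.0057), and its 3 other probe sets rose by 0.46 to 0.75. Atic, which closes the purine ring, rose by 0.39 ± 0.09 (limma adjusted p = 0.014), a call lost without WT replicate 1 or WT replicate 2 (limma adjusted p = 0.051 and 0.057), and its other probe set differed by 0.50 (limma adjusted p = 0.074). Adsl, the lyase that acts both before Atic and in AMP synthesis, read 9.92, 9.96 and 9.97 in WT and 9.95, 10.39 and 10.24 in KO, so that KO replicate 1 lay within the WT range. Its difference was 0.24 (95% interval from -0.04 to 0.53, limma adjusted p = 0.19), and 0.37 without KO replicate 1 (limma adjusted p = 0.040).

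PRPP synthetase supplies the activated ribose for purines and pyrimidines, and its genes Prps1 and Prps2 also went apart. Prps1 rose by 0.41 ± 0.11 (SE, n = 3 per group; limma adjusted p = 0.024), from 10.36, 10.20 and 10.43 to 10.61, 10.86 and 10.74. That call was lost when WT replicate 1 or 2 or KO replicate 2 or 3 was left out, with limma adjusted p of 0.055 to 0.088. A probe set shared between Prps1 and Prps1l3 differed by 0.01, with overlapping groups (limma adjusted p = 0.95). Prps2 fell by 0.62 on the log2 scale (SE 0.09, limma adjusted p = 0.0023), from 11.29, 11.31 and 11.32 to 10.56, 10.72 and 10.80, with another probe set falling by 0.63 and the third not passing the test. Under scaling to the hybridization controls the fall of Prps2 did not pass the threshold.

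The branch from IMP to AMP and GMP held the largest rise. Adssl1, the adenylosuccinate synthase isoform best known from muscle, read 6.47, 6.31 and 6.26 in WT and 10.68, 10.06 and 10.46 in KO. It rose 16.6-fold, by 4.06 ± 0.16 (SE, n = 3 per group; limma adjusted p = 1.5e-05). Adss, the isoform expressed in most tissues, read 11.08 to 11.16 in WT and 11.18 to 11.26 in KO, a difference of 0.10 (95% interval from -0.08 to 0.29, limma adjusted p = 0.38). Each gene had 1 probe set. Among the KO arrays Adssl1 was highest in replicate 1, as were 27.2% of all genes that rose, and lowest in replicate 2. Also highest in KO replicate 1 were all 12 neutrophil markers and all 10 markers of mast cells, basophils and eosinophils. So were 8 of 10 monocyte and macrophage, 5 of 8 progenitor and 4 of 9 dendritic cell markers. The counts were 3 of 8 for plasma cells, 3 of 9 for B cells, 2 of 11 for T cells and 1 of 7 for NK cells. Of the megakaryocyte markers 1 of 6 was highest there, and no erythroid marker was. On the GMP side Gmps, GMP synthetase, rose by 0.67 ± 0.09 (limma adjusted p = 0.0015), from 10.47, 10.45 and 10.59 to 11.09, 11.27 and 11.14, and its 2 other probe sets rose too. Impdh1, an IMP dehydrogenase, had a WT mean of 9.06 ± 0.06 (SD, n = 3) and a KO mean of 8.83 ± 0.12, a difference of -0.23 (limma adjusted p = 0.11) that was called as a fall with array weights (-0.27, limma adjusted p = 0.049) and was 0.14 under scaling to the hybridization controls.

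Among the 3 folate enzymes Mthfd1 rose. Mthfd1, the cytosolic trifunctional enzyme that makes the folate forms used for purines and thymidylate, read 10.44, 10.45 and 10.42 in WT and 11.32, 11.70 and 11.52 in KO, a rise of 1.08 ± 0.11 (SE, n = 3 per group; limma adjusted p = 0.00043). Mthfd2, its mitochondrial counterpart, which is induced when T cells are activated, gave 9.09 to 9.48 in WT and 9.11 to 9.26 in KO. Its difference of -0.06 had a 95% interval from -0.35 to 0.23, which leaves out a rise of the size of Mthfd1, and turned to 0.31 under scaling to the hybridization controls, to 0.01 with array weights and to 0.07 without WT replicate 3, with no call. Shmt1, the cytosolic serine hydroxymethyltransferase, gave probe sets that disagreed. Its brightest one overlapped between genotypes, 8.14 to 8.61 and 8.36 to 8.64 (difference 0.12, limma adjusted p = 0.57), while its 3 others rose by 0.59, 1.01 and 0.98, and the mean of all 4 rose.

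Salvage enzymes and nucleoside diphosphate kinases gave 4 rises among 6 members. Pnp, the purine nucleoside phosphorylase whose loss causes T cell deficiency, read 10.96, 10.86 and 10.92 in WT and 12.42, 12.93 and 12.47 in KO. It rose 3.23-fold, by 1.69 ± 0.14 (SE, n = 3 per group; limma adjusted p = 0.00019), and a probe set shared between Pnp and Pnp2 rose by 1.79. Ada, adenosine deaminase, which acts just before Pnp, rose by 0.60 ± 0.16 (limma adjusted p = 0.028), from 8.31, 8.38 and 8.75 to 8.99, 9.33 and 8.90. This call was lost without WT replicate 1, WT replicate 2 or KO replicate 1 (limma adjusted p of 0.052 to 0.099).

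Dck and Hprt differed less than Pnp. Dck, which phosphorylates deoxycytidine, read 11.08, 10.89 and 11.18 in WT and 11.51, 12.13 and 11.39 in KO. The groups did not overlap, and the difference of 0.62 ± 0.20 (SE, n = 3 per group; limma adjusted p = 0.051) was called without KO replicate 2 or KO replicate 3 and not otherwise among the left-out arrays. The 2 other probe sets of Dck overlapped between genotypes and differed by 0.47 and 0.40 (limma adjusted p = 0.17 and 0.24). Hprt, which salvages hypoxanthine and guanine, rose by 0.33 ± 0.09 (limma adjusted p = 0.032), but the call did not hold when WT replicate 1 or 2 or KO replicate 2 or 3 was left out (limma adjusted p of 0.061 to 0.11) or when quantile normalization was repeated (0.064).

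Nme1 and Nme2, nucleoside diphosphate kinases whose genes lie 2669 bases apart on chromosome 11, did not move together. Nme1 rose by 0.44 ± 0.10 (SE, n = 3 per group; limma adjusted p = 0.016), from 11.44, 11.47 and 11.63 to 11.81, 12.06 and 11.96. The call of Nme1 did not hold when WT replicate 1 or 2 or KO replicate 3 was left out (limma adjusted p of 0.050 to 0.063), and its other probe set did not pass the test (difference 0.23, limma adjusted p = 0.063). Nme2 read 13.34, 13.38 and 13.50 in WT and 13.23, 13.16 and 13.28 in KO, a difference of -0.18 (limma adjusted p = 0.16) that was called as a fall with an intensity trend and robust fitting (limma adjusted p = 0.0496) and turned to 0.18 under scaling to the hybridization controls. The Nme2 probe set was brighter than 99.5% of all, near the top of the range.

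The pairs of related enzymes were compared within each array, as the difference between their log2 values, which does not depend on how arrays are scaled. In all 6 measured pairs the groups did not overlap. Except for Adss and Adssl1, this followed from the single genes. In each other pair, all KO values of one gene lay above WT and all of the other below. Among single genes, 24.1% had all KO values above all WT values and 29.7% below, and the share over other gene pairs was not computed. The exact permutation test (two-sided) gave p = 0.1 for each pair, the smallest value that 3 against 3 arrays allow. It was 0.1 after Benjamini-Hochberg adjustment over the 6 pairs. For the pairs other than Adss and Adssl1 this p was fixed by the values of the single genes and adds nothing to them. Rrm2 shifted against Rrm2b by 3.78, from 0.18 ± 0.17 (SD, n = 3) in WT to 3.96 ± 0.26 in KO. Tk1 shifted against Tk2 by 4.19, from -2.00 ± 0.12 to 2.18 ± 0.41. The shift of Adss against Adssl1 was -3.95, from 4.76 ± 0.14 to 0.81 ± 0.31. Smaller shifts were found for Ctps against Ctps2 (1.40), Prps1 against Prps2 (1.02) and Nme1 against Nme2 (0.62). In 4 of the pairs one gene rose and the other fell, and in the pairs of Adss and Nme one gene rose while the other did not pass the test. Unlike the shifts, these calls depend on scaling. Under scaling to the hybridization controls the falls of Ctps2 and Prps2 were lost, and Adss was called.

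**Figure D3:**
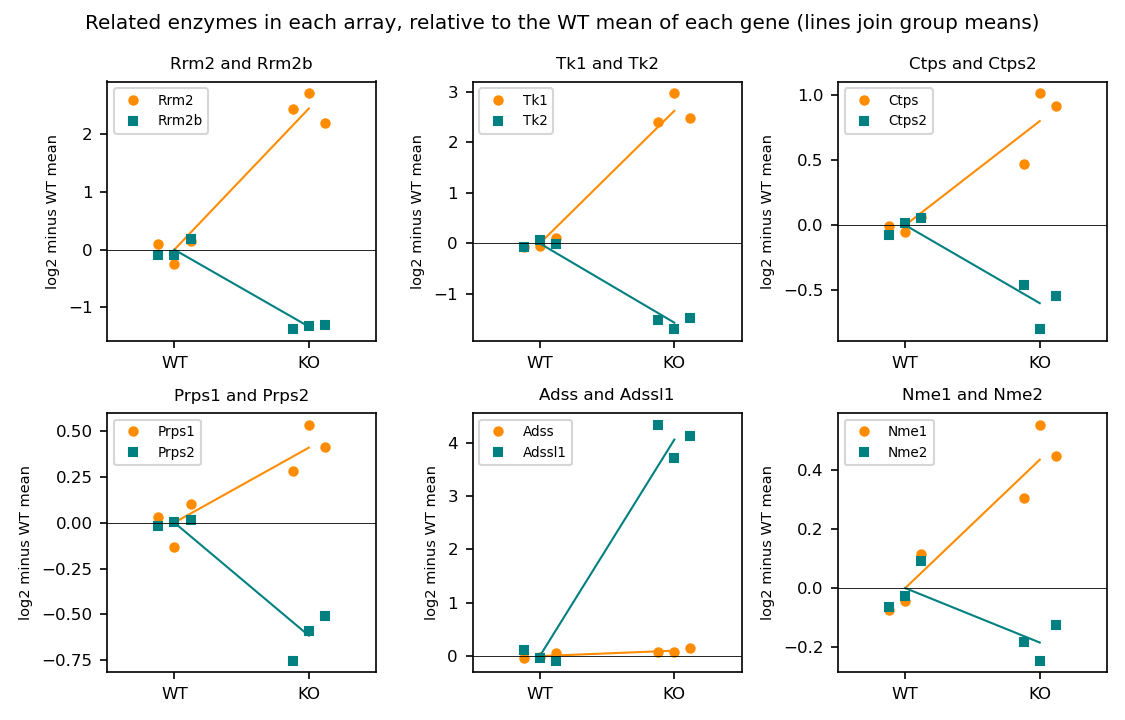
Log2 intensity of 6 pairs of related enzymes in each array, with the WT mean of each gene subtracted; symbols are single arrays and lines join the group means. The lines part in every pair, by 4.19 between Tk1 and Tk2 and by 0.62 between Nme1 and Nme2.

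Genes around these enzymes were counted from further lists, beside 18.6% of all genes that rose and 18.6% that fell. All 22 measured DNA replication genes rose, with a median difference of 1.57, led by the cyclin Ccne2 (3.24 ± 0.20), the origin licensing factor Cdc6 (2.67 ± 0.18) and Uhrf1, which keeps DNA methylation through replication (2.55 ± 0.13). Of 19 other folate and serine genes 9 rose (47.4%) and 1 fell (5.26%). Psat1 of serine synthesis, Gcsh of the glycine cleavage system and Shmt2, the mitochondrial serine hydroxymethyltransferase, rose by 1.27 ± 0.13, 1.04 ± 0.14 and 0.91 ± 0.08 (limma adjusted p = 0.00042, 0.0012 and 0.00025). The mitochondrial folate carrier Slc25a32 fell by 0.67 on the log2 scale (limma adjusted p = 0.013).

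Of 15 other nucleotide kinases and salvage enzymes 9 rose (60%) and 2 fell (13.3%), against 18.6% and 18.6% of all genes. Ak4, a mitochondrial adenylate kinase, rose by 2.42 ± 0.19, Cmpk2, a mitochondrial UMP-CMP kinase that interferons also induce, by 1.35 ± 0.18, and Nme4, a mitochondrial nucleoside diphosphate kinase, by 1.27 ± 0.19. Dguok, the mitochondrial deoxyguanosine kinase that complements Tk2 in dNTP salvage, fell by 1.02 on the log2 scale (SE 0.10, limma adjusted p = 0.00036). Its values were 10.20, 10.41 and 10.45 in WT and 9.27, 9.31 and 9.42 in KO. Rrm2b, Tk2 and Dguok, known for supplying mitochondrial dNTPs in resting cells, were lower in all 3 KO arrays than in any WT array. This held for 29.7% of all genes, and the mitochondrial kinases Ak4, Cmpk2 and Nme4 went the other way. Uckl1, a uridine-cytidine kinase-like protein, fell by 0.58 on the log2 scale.

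Of 20 breakdown enzymes and transporters 9 rose (45%) and 3 fell (15%), against 18.6% and 18.6% of all genes. Gda, guanine deaminase, rose most, by 4.29 ± 0.21 (SE, n = 3 per group; limma adjusted p = 2.7e-05), from 6.15, 6.43 and 6.43 to 11.10, 10.29 and 10.50. Cda, cytidine deaminase, and Upb1, a pyrimidine breakdown enzyme, rose by 1.75 ± 0.28 and 1.59 ± 0.27. Ampd1, an AMP deaminase isoform best known from muscle, fell by 1.97 on the log2 scale (limma adjusted p = 0.0025), from 7.81, 8.19 and 8.06 to 6.29, 5.32 and 6.55. Nt5e, the surface AMP nucleotidase CD73 of lymphocytes, fell by 1.88 on the log2 scale (limma adjusted p = 0.012), from 9.89, 9.92 and 10.25 to 8.56, 7.07 and 8.78. Nt5c, a cytosolic and nuclear deoxynucleotidase, fell by 0.81 on the log2 scale. KO replicate 2 was the lowest array for Ampd1 and Nt5e, as it was the lowest KO array for 57.7% of all genes that fell. It was also the lowest KO array for all 11 T cell, 7 of 7 NK cell and 12 of 12 neutrophil markers. The same held for 8 of 10 mast cell, basophil and eosinophil, 6 of 10 monocyte and macrophage, and 6 of 8 plasma cell markers. It held for 3 of 9 B cell, 3 of 9 dendritic cell, 3 of 8 progenitor and 1 of 6 megakaryocyte markers, and for no erythroid marker.

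The KO arrays were not alike for the members that rose. KO replicate 2 gave the highest value for 21 of 23 of them, or 91.3%, whereas 61.5% of all genes that rose were highest there. Their mean was 10.72, 11.01 and 10.79 in KO replicates 1, 2 and 3 and 9.63 to 9.73 in WT. The 22 DNA replication genes were all highest in KO replicate 2 as well, with means of 11.22, 11.61 and 11.20. So were the 11 erythroid markers, with means of 10.68, 11.32 and 10.28. The same held for 6 of 9 B cell markers (means of 7.15, 7.91 and 6.65) and 4 of 6 megakaryocyte markers (7.74, 7.98 and 7.62). It held for 2 of 10 monocyte and macrophage, 2 of 9 dendritic cell, 2 of 8 plasma cell and 2 of 8 progenitor markers. No neutrophil, NK cell, or mast cell, basophil and eosinophil marker was highest in KO replicate 2. In the same array the T cell marker mean was 9.29, against 10.52 and 10.65 in the other KO arrays. Without KO replicate 2, 22 members rose and 5 fell, and the median difference over the members was 0.47.

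**Figure D4:**
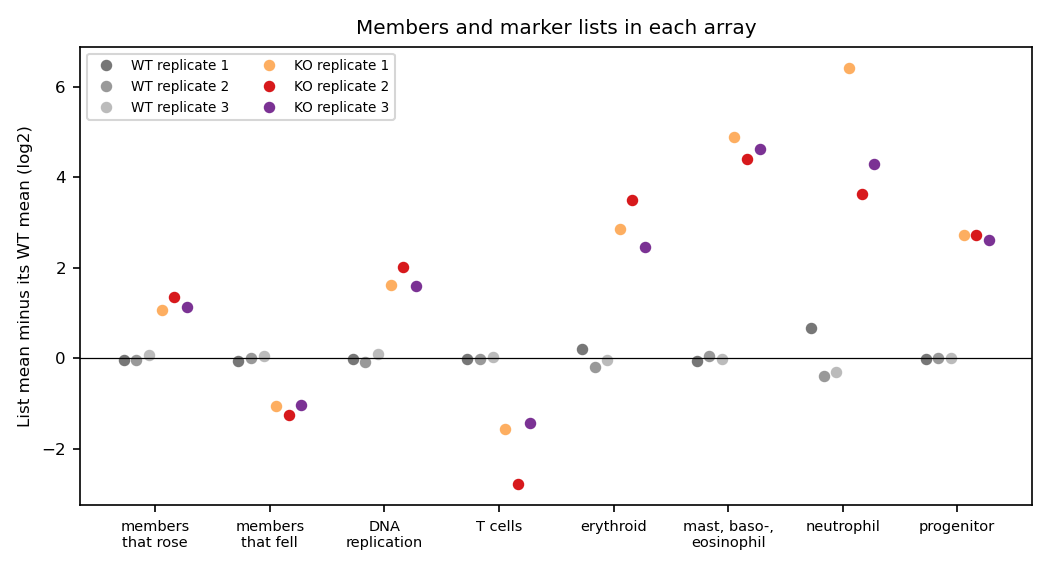
Mean log2 intensity of the members that rose, the members that fell, DNA replication genes and 5 lists of cell type markers in each array, with the mean of the WT arrays subtracted from each list. KO replicate 2 (red) is the highest KO array for members that rose, DNA replication genes and erythroid markers. It is the lowest for members that fell and for T cell, neutrophil, and mast cell, basophil and eosinophil markers. KO replicate 1 (orange) is the highest for neutrophil, and mast cell, basophil and eosinophil markers, and barely so for progenitor markers (10.20, against 10.19 in KO replicate 2).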

How the data were processed

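RNA of T cells from single spleens was amplified with oligo(dT) and random primers, labelled with biotin and hybridized to Affymetrix 1-colour arrays, per the labels' protocols. The deposited values were log2 probe-set intensities made with RMA (version not given in the sources used here), per the submitters' processing notes, and were used unchanged. RMA gives no detection calls, and differences of dim probe sets are understated. Of 45101 probe sets 64 were controls, and the other 45037 were tested; 34945 had 1 annotated gene, 932 had several and 9160 were unnamed, and 34741 of those with 1 gene matched the GRCm38.p6 gene table by Entrez ID. A member takes its brightest probe set with no other gene. R 4.3.3 and limma 3.58.1 (lmFit, eBayes, genotype as the only term, tested on simulated data) gave differences with moderated standard errors, and two-sided p values were adjusted by Benjamini-Hochberg over all probe sets. Intervals are 95% intervals of the moderated test. The arrays are few and limit the precision. Members, lists and alternatives were chosen with earlier results of these data known. All members are accounted for; values by array are given for up to 4 changed members of a role and where a role or pair turned on others, and related genes are the 3 with the largest changes in each direction. Same-numbered arrays were not paired: the correlations of their deviations were 0.10, -0.24 and -0.20. The alternatives are in the closing section. No column was left unused.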

Additional observations from a re-analysis of the deposited data

How the results depend on the processing

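Of 28 members called, 20 kept direction and call under repeated quantile normalization, median centring, scaling to hybridization controls, the filter at the median level of 5.77, robust fitting with a trend, array weights, the replicate block, the mean of probe sets and each left-out array. Scaling to hybridization controls left 3 falls in place of 5 and a median difference of 0.97, and gave Impdh1 0.14, Mthfd2 0.31 and Nme2 0.18, each opposite in sign and not called. Leaving out each array in turn gave 17 to 23 rises, 5 falls and medians of 0.47 to 0.69. The replicate block gave 20 rises and 5 falls, losing Prps1, Ada and Hprt, and repeated quantile normalization gave 22 rises, losing Hprt. With array weights Impdh1, and with robust fitting and a trend Nme2, was called too, for 6 falls each. Mthfd2 was 0.0086 with array weights, and leaving out single arrays gave -0.129 to 0.0664. With an adjusted p below 0.10, 24 rose, and with at least 1.5-fold, 18 rose. Dck was called in 6 of the alternatives. Of the 76 related genes 49 rose (64.5%) and 6 fell (7.89%), against 18.6% and 18.6% of all genes. The alternatives gave 42 to 60 rises and 4 to 7 falls among them. Among 46 other probe sets of the members, 26 shared a call with the main one and 0 had the opposite call. Another 13 were not called where the main one was, 7 of these below the median brightness, and 3 were called where the main one was not. Other probe sets of opposite sign, none called, gave Rrm1 -0.10, Tyms -0.22 and -0.0239, Umps -0.0723, Ctps2 0.0015 and Ppat -0.22. The causes were not tested. The shifts of all 6 pairs kept their sign in every alternative run (mean of probe sets, replicate block, left-out arrays), which were chosen after seeing the data.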
